A study of Mus musculus with 6 samples.

Results

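The imprinted genes Zrsr1, Nap1l5, Magel2, Peg12, Gnas, Zdbf2 and Sfmbt2 were examined for DNA methylation around their transcript starts in mouse quadriceps muscle. Every region of the deposited table that was keyed by a RefSeq transcript of one of these 7 genes was taken, which gave 10 regions of 10755 and 306 cytosine positions of 268725. Gnas was represented by 3 transcripts and Sfmbt2 by 2, and each transcript was kept apart. The samples were 3 of exercised C57BL/6 mice, trained on a motor-driven treadmill for 4 weeks and sampled 3 h after the last bout, and 3 of sedentary C57BL/6 mice. Methylation was read by reduced representation bisulfite sequencing (RRBS), in which DNA is cut by a restriction enzyme and bisulfite turns unmethylated cytosines into bases that sequence as T. The comparison asks whether the methylation of these regions differed between exercised and sedentary samples. An effect of the 4 weeks of training and one of the last bout cannot be told apart in this design. The labels do not say whether the samples of one group are separate animals, and p-values then reflect only sample-to-sample spread, which may be technical.

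An imprinted gene is expressed from one parental allele, and the silent allele of its control region usually carries the methylation, so that a control region is methylated on about one allele in every cell. Zrsr1 and Nap1l5 are retrogenes, copies made from spliced RNA that landed in introns of the host genes Commd1 and Herc3, and their maternal alleles are methylated. Magel2 (a MAGE-family protein gene) and Peg12 (a relative of the Frat genes, which bind the kinase GSK3) lie in the Prader-Willi cluster and are expressed from the paternal allele. Gnas has several starts in a row, the first for the secretory protein Nesp, then one for the long G protein subunit XLas, then exon 1A, which is methylated on the maternal allele, and last the start of the stimulatory G protein subunit Gs alpha, whose own promoter is unmethylated on both alleles. Zdbf2 is a zinc finger gene expressed from the paternal allele, and Sfmbt2 is a Polycomb-group gene that is imprinted mainly in early embryo and extraembryonic tissue.

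Positions are given relative to the transcript start, since a deposited region ran from 2000 bases before the start to 999 after it. The sequences of 3 starts are shown because they place the measured cytosines beside the values. They are from RefSeq for the build GRCm38.p6, with capitals for the bases whose cytosines were listed (a capital G is the cytosine of the other strand), and were matched by their CpGs to the deposited positions, whose own build is mm9. Peg12 is chr7:62464493-62464555 on the minus strand, from position -45 to position 17. Zdbf2 is chr1:63273289-63273318 on the plus strand, from position 20 to position 49. The Gs alpha start of Gnas is chr2:174329831-174329941 on the plus strand, from position -258 to position -148 of the deposited region, whose start lies 83 bases from that in the RefSeq table.
Peg12: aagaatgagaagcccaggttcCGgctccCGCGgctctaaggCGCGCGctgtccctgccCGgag
Zdbf2: gtCGagCGacaCGCGctcCGctcCGctccg
Gnas: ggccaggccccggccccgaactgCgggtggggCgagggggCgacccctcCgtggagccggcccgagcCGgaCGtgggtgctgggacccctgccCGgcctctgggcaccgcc

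In these stretches the level depended on the tetranucleotide around the cytosine. The Gnas stretch had 6 listed cytosines at other CpGs, with mean levels of 0% to 1.97%, and 4 in CCGG or TCGA, with levels of 19.96% to 100%. In the Zdbf2 stretch the 10 cytosines outside these motifs stood at 1.92% to 11.2%, while the pair in TCGA at its first capitals stood at 10.3% and 99.3%. In the Peg12 stretch the 10 cytosines outside the motifs stood at 12.1% to 31.8%, and the 4 in CCGG at 36.2% to 99.6%. CCGG is the site cut by MspI, the usual RRBS enzyme, and TCGA is the site cut by TaqI. The labels name no enzyme.

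The same split held over the table. Both motifs read the same on each strand, and 52.8% of the 32851 start windows in the RefSeq table held CCGG and 22.0% held TCGA. In the 2395 start windows where every listed position fell on a CpG, the median level was 68.3% at 8647 positions in CCGG, 70.4% at 833 positions in TCGA and 1.40% at 25505 other CpGs. Of the 4489 positions at 75% or more, 4445 (99.0%) lay in one of the motifs. A position was here called above its surroundings when its mean level was more than 25 points above the median of the other positions of its region within 100 bp, and 6418 of 6419 such positions in these windows lay in CCGG or TCGA. This limit was chosen after the values had been seen. The cause of the split was not tested, and the level and the group difference of each region are given with and without the positions above their surroundings.

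**Figure D1:**
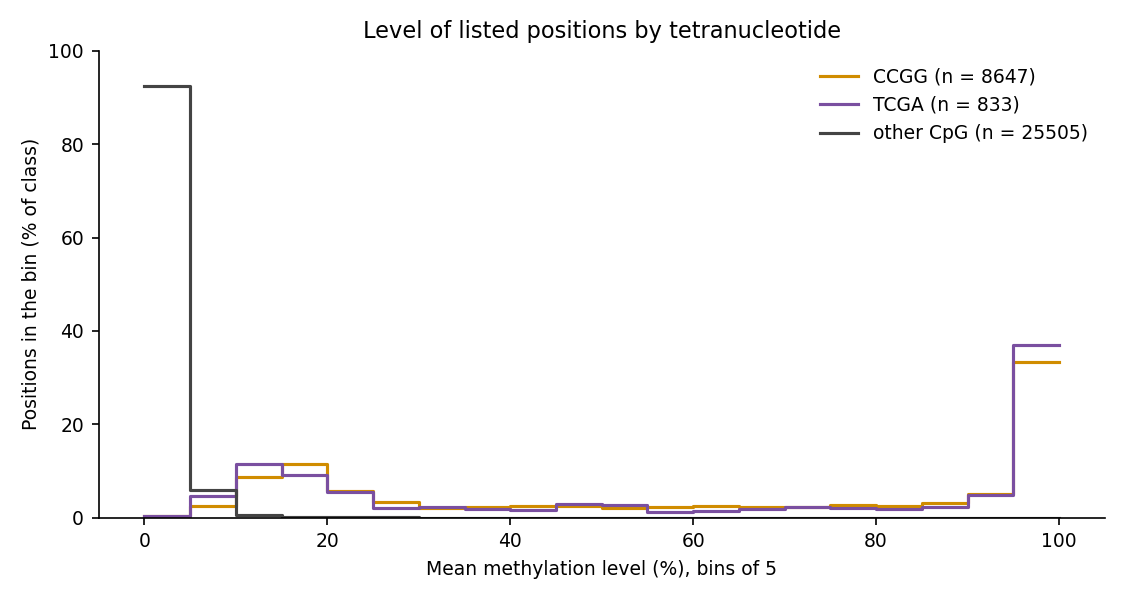
Distribution of the mean methylation level (x axis, %, bins of 5) over listed positions in CCGG, in TCGA and at other CpGs of the start windows (y axis, % of the positions of each class). Other CpGs sit near 0 (median 1.40%), whereas both motifs spread up to full methylation (medians 68.3% and 70.4%).

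Of the 306 positions of the 7 genes, 61 (19.9%) were above their surroundings, close to the 20.1% over all regions. Without them, 76 of the 245 remaining positions (31.0%) had a mean level of 25% to 75%, the range around that of 1 methylated allele, against 4716 of 214709 (2.20%) over all regions. In single samples the counts were 62 to 81 of the 245 and 4609 to 12166 of the 214709. With all positions the counts by mean level were 92 of 306 (30.1%) and 20590 of 268725 (7.66%). The 7 genes were known to be imprinted, and no test was made of this difference.

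Without the positions above their surroundings, the mean level over the 6 samples was 54.1% for the XLas start of Gnas, 48.8% for Nap1l5, 44.6% for the Nesp start of Gnas, 38.8% for Magel2 and 37.6% for Zrsr1. It was 20.01% for Peg12, 16.2% for Sfmbt2 NM_001198808, 7.29% for the Gs alpha start of Gnas, 6.17% for Sfmbt2 NM_177386 and 4.94% for Zdbf2. The median of all regions with at least 3 such positions was 3.95%. With all positions the same regions stood at 63.7%, 56.4%, 52.3%, 55.4%, 52.4%, 30.6%, 44.1%, 24.7%, 42.6% and 14.3%, and the median over all tested regions was 22.0%. Among the first 5 each region's samples overlapped those of the next in this order, whereas the highest Peg12 sample (22.2%) lay below the lowest Zrsr1 sample (28.3%). Sfmbt2 NM_001198808 rested on 2 positions and ran from 1.72% to 40% over the samples, so that it overlapped both Zrsr1 and Peg12.

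**Figure D2:**
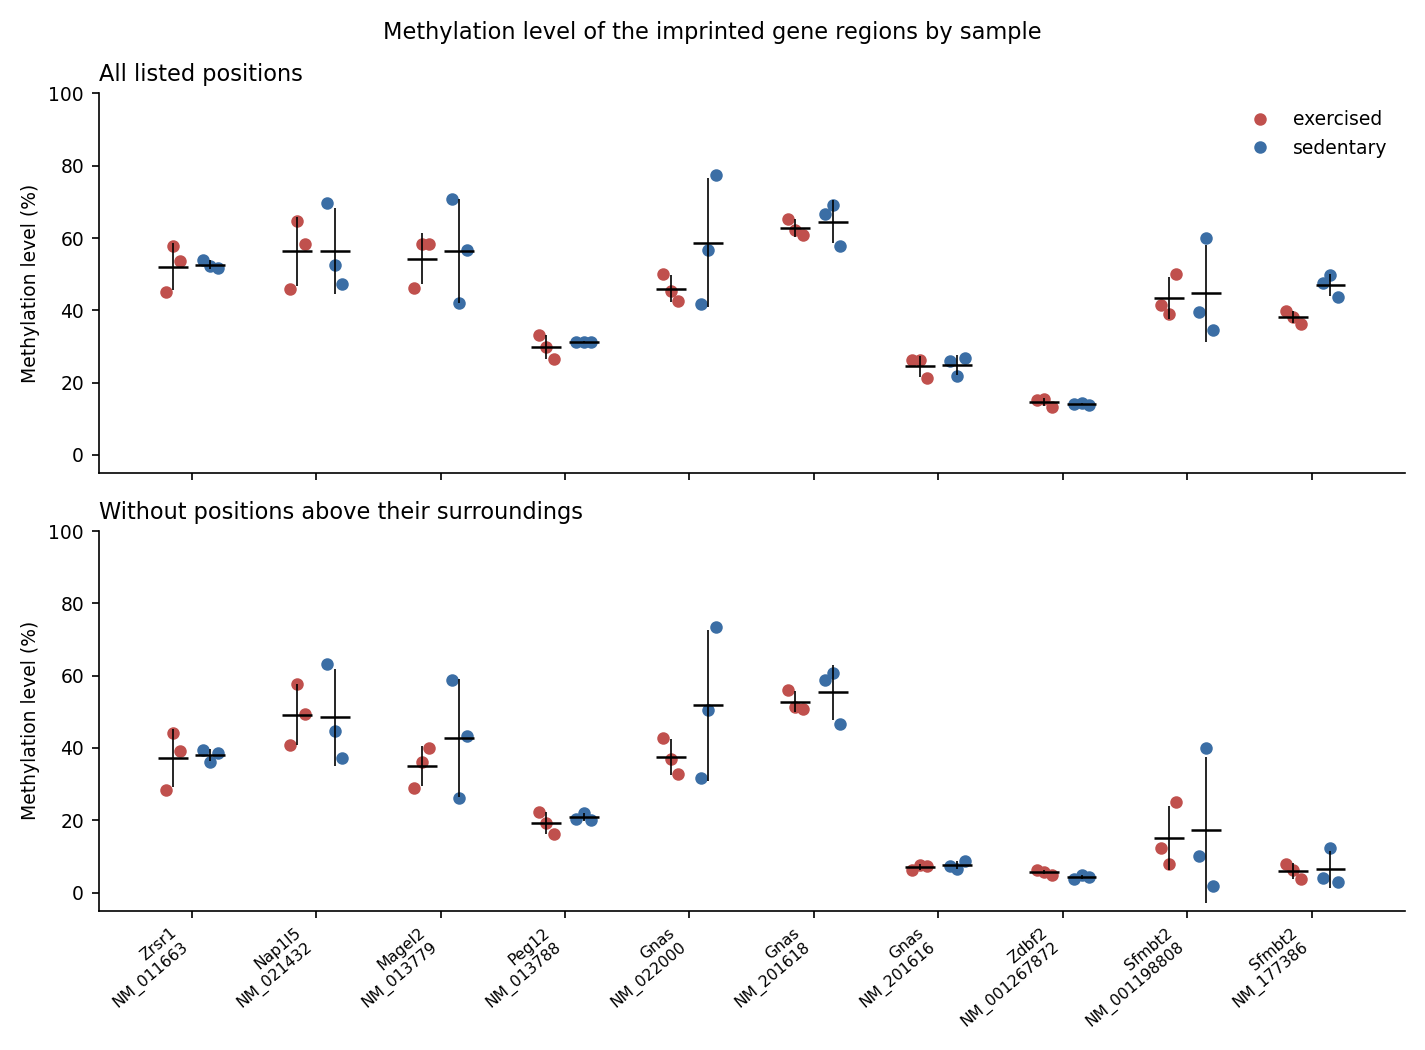
Methylation level (y axis, %) of the 10 regions in each sample, with all positions (top) and without positions above their surroundings (bottom). Points are samples, horizontal bars group means and vertical bars SD (n = 3). Sfmbt2 NM_177386 is lower in all exercised samples in the top panel (36.4% to 39.8% against 43.6% to 49.7%) and at 3.03% to 12.3% in all 6 samples in the bottom one.

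None of the 10 regions passed the test of exercised against sedentary samples. In edgeR's quasi-likelihood test over 10021 regions each had an adjusted p of 1.0, and 0% of all regions were called. At an unadjusted p under 0.05 it gave 1 of the 10 (Sfmbt2 NM_177386), against 2.37% of all regions. The level was lower in exercised samples in 9 of the 10 and higher in 1 (Zdbf2), with a median of -1.35 points, whereas 38.96% of all tested regions were lower and their median was 0.390 points. Without positions above their surroundings it was lower in 8 of the 10 and higher in 2 (Nap1l5 and Zdbf2), with a median of -1.22 points, whereas 41.3% of all regions with at least 3 positions left were lower and their median was 0.241 points. Groups that did not overlap were lower in exercised samples in 1 region (2.35% of all regions) and higher in 0 (4.91%). Without positions above their surroundings, 9 of the regions could be tested, with 0 at an unadjusted p under 0.05 (4.3% of all regions), 0 below every sedentary value (3.1%) and 1 above (Zdbf2, 6.65%). Of the 294 member positions tested, 0 passed adjustment (0% over the table) and 7 (2.38%) had an unadjusted p under 0.05, against 3.32% of all positions tested. Every exercised value exceeded every sedentary one at 12 (4.08%, against 4.01% of all positions) and fell below every one at 17 (5.78%, against 2.15%). Of the 12, 8 lay in Zdbf2, and of the 17, 8 lay in Peg12. Positions read by the same reads are not independent, and no test was made of these shares.

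Zrsr1 (chromosome 11, 22870005 to 22873004) encodes a splicing factor related to U2AF. Its 34 positions ran from position -142 to position 988, and 25 remained without those above their surroundings, at mean levels of 20.03% to 55.4%. Of these 25, 24 had a mean level of 25% to 75%. In single samples the count ran from 11 (sedentary sample 3) to 24 (exercised sample 2). The level of the region without positions above their surroundings was 28.3%, 44.02% and 39.3% in exercised samples 1, 2 and 3 against 39.4%, 36.1% and 38.5% in sedentary samples 1, 2 and 3, the order used throughout. The exercised values surrounded the sedentary ones, and the difference was -0.814 points (SE 4.76, exact permutation p = 0.9), or -0.534 points with all positions. The region of Commd1, the host gene, stood at 31.6% with all positions and 8.83% without those above their surroundings. At base 840, the position of the Zrsr1 region with an unadjusted p under 0.05 (edgeR p = 0.0306, adjusted p = 0.919, exact permutation p = 0.1), the level was 95.9%, 97.1% and 98.8% in exercised against 100% in each sedentary sample, and it was above its surroundings.

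Within Zrsr1, cytosines of the same block agreed within a sample while samples differed, though adjacent bases in different blocks often did not agree. Positions within 100 bp whose coverage differed by at most 10% over the samples were taken as a block read by the same reads, a definition chosen after the values had been seen. In the 8 Zrsr1 blocks the median SD between positions within a sample was 2.17 points and that between the 6 samples was 13.04 points, where counting error alone gave 9.36. At bases 814 and 832 the block level was 3.08%, 46.4% and 38.6% in exercised against 21.8%, 29.0% and 34.7% in sedentary samples. At base 814, exercised sample 1 had 3 methylated reads of 97 (3.09%, 95% Wilson interval 1.06% to 8.70%), an interval that held none of the other samples' values. The block at bases 815 to 841, which begins at the base next to 814, had 29.5%, 39.7% and 53.3% in exercised against 39.4%, 29.8% and 79.4% in sedentary samples. The level near 3% of exercised sample 1 was thus in one of these blocks, and the high value of sedentary sample 3 in the other. Exercised sample 1 was also the lowest at bases 815 to 841, though only just (29.5%, next 29.8%). At base 804, outside both blocks, it had 26 methylated reads of 120 (21.7%, 95% Wilson interval 15.2% to 29.9%). The other samples stood at 46.8% to 62.0% there. Adjacent listed bases are the strands of 1 CpG if both belong to it, which could not be read here, since no sequence was at hand for most of Zrsr1.

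Adjacent bases also differed within samples elsewhere. At bases 233 and 234 of Zrsr1, sedentary sample 1 had 72.7% on one base and 8.33% on the next. Over the 6 adjacent pairs of Zrsr1 the bases differed by 17.8 points on average within a sample, where counting error gave 10.6 points, and by more than 25 points in 10 of 36 pair-sample values. The mean difference was 21.8 points against 10.1 over 4 pairs for the XLas start of Gnas and 11.8 against 6.93 over 31 pairs for Peg12. In regions of lower level it was 8.63 against 3.46 for the 1 pair of Sfmbt2 NM_177386, 4.28 against 2.78 over 17 pairs for Zdbf2 and 2.34 against 2.04 over 15 pairs for the Gs alpha start. The labels mention no molecular identifiers, so copies of 1 molecule cannot be told from separate molecules, and their part in these differences was not tested.

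**Figure D3:**
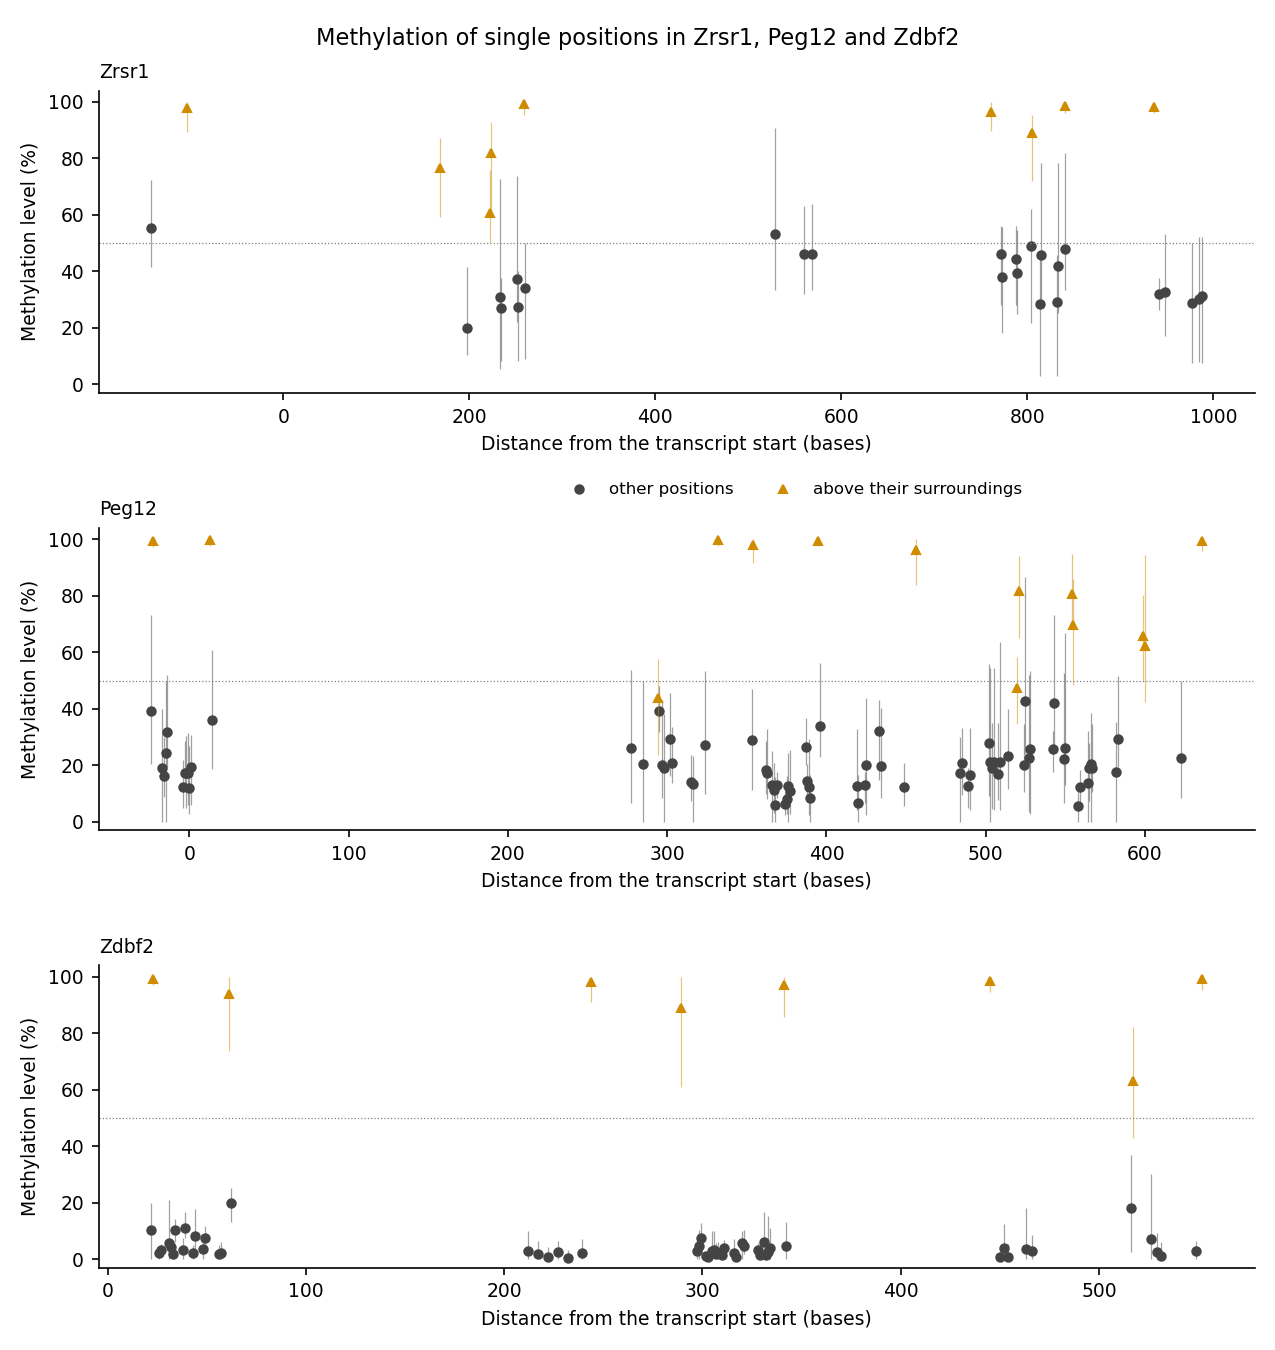
Mean level of each listed position (y axis, %) against its distance from the transcript start (x axis, bases) in Zrsr1, Peg12 and Zdbf2, with vertical lines from the lowest to the highest sample. Triangles are positions above their surroundings, and the dotted line marks 50%. Other positions lie at 20.03% to 55.4% in Zrsr1, 5.48% to 42.7% in Peg12 and 0.538% to 19.8% in Zdbf2.

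Nap1l5 (chromosome 6, 58856121 to 58859120), a nucleosome assembly protein family gene, was listed at 4 positions from base 367 to base 401. The 3 not above their surroundings stood at 44.7%, 50.3% and 51.5%. Their joint level was 40.7%, 57.6% and 49.3% in exercised against 63.2%, 44.8% and 37.3% in sedentary samples. The groups overlapped, with a difference of 0.745 points (SE 9.11, exact permutation p = 1.0), or -0.152 points with all positions.

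Magel2 (chromosome 7, 69519865 to 69522864) was also listed at 4 positions, from base 441 to base 742, of which 1 was above its surroundings at 96.8%. The joint level of the other 3 was 29.0%, 36.0% and 40% in exercised against 58.7%, 26.1% and 43.2% in sedentary samples. The groups overlapped, with a difference of -7.63 points (SE 9.95, exact permutation p = 0.5), or -2.19 points with all positions. At base 742 alone the level was 34.8%, 43.5% and 31.8% in exercised against 71.0%, 46.3% and 50% in sedentary samples. Here all exercised samples were lower (exact permutation p = 0.1, edgeR p = 0.343).

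Peg12 (chromosome 7, 69608397 to 69611396) had the most positions, 87, from position -24 to position 636. Without the 14 above their surroundings, the level was 22.2%, 19.2% and 16.2% in exercised against 20.3%, 22.0% and 20.1% in sedentary samples. The groups overlapped, with a difference of -1.62 points (SE 1.85, exact permutation p = 0.5), or -1.45 points with all positions. Only 18 of the 73 positions had a mean level of 25% to 75% (13 to 28 in single samples). The 15 blocks averaged 13.7% to 34.2%, so that an intermediate but low level ran along the whole stretch. Unlike in Zrsr1, the median SD between positions within a sample (9.76 points) was above that between samples (7.91 points) in these blocks. The blocks of the 2 genes were not alike, since those of Zrsr1 held 2 or 3 positions and averaged 28.9% to 46.2%, and those of Peg12 held up to 8. In the 1 Peg12 block at 25% to 75%, the SD between samples (18.1 points) was above that between positions (13.3 points). In the first 1000 bp window by coordinate (69608001 to 69609000) the level with all positions was 32.7%, 31.8% and 26.8% in exercised against 32.5%, 33.4% and 38.2% in sedentary samples (exact permutation p = 0.2, edgeR p = 0.0829, adjusted p = 1.0, with 0% of all windows called and 2.8% at an unadjusted p under 0.05). In the other window (69609001 to 69610000) the difference had the opposite sign, at 0.908 points (SE 2.58, exact permutation p = 0.8, edgeR p = 0.722).

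**Figure D4:**
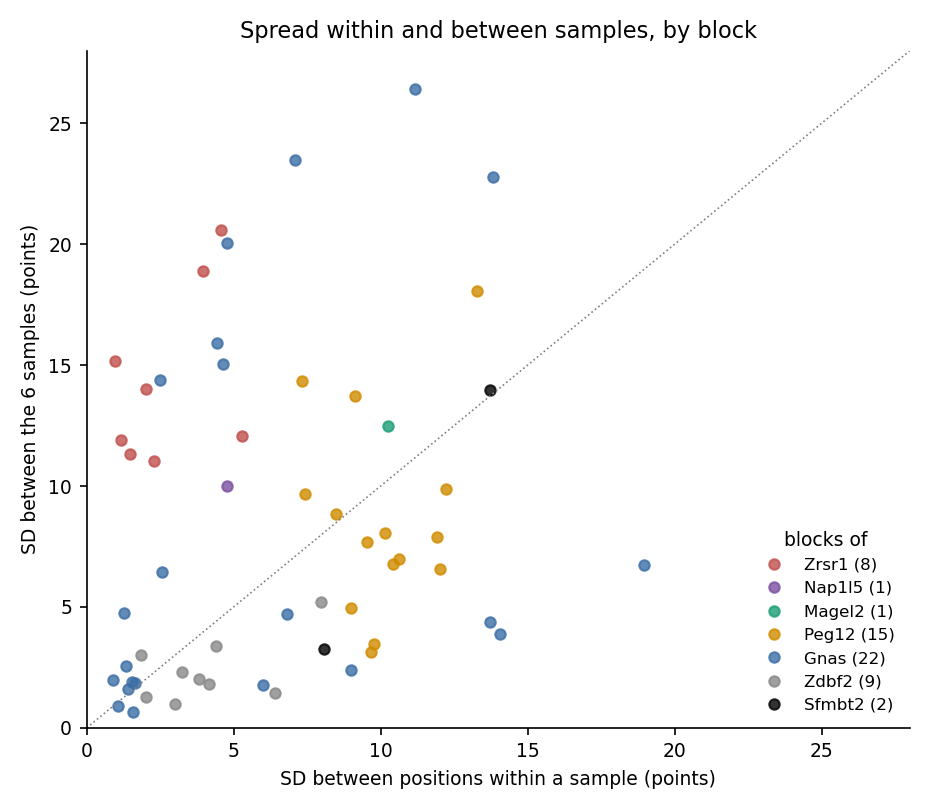
SD between the 6 samples (y axis, percentage points) against the mean SD between positions within a sample (x axis, percentage points) for 58 blocks of positions read together, coloured by gene. The dotted line marks equal spread. All 8 Zrsr1 blocks lie above it and 10 of 15 Peg12 blocks lie below it.

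Among blocks with a mean level of 25% to 75%, samples differed more than positions in 19 of the 20 member blocks, in 16 of 21 blocks of other imprinted genes and in 168 of 412 blocks of all other genes (40.8%). The median SD between positions was 4.61 points in the first, 8.58 in the second and 11.98 in the third. The median SD between samples was 14.7, 12.7 and 10.9 points, where counting error alone gave 9.46, 8.51 and 8.19. Positions read by the same reads share much of this error, so it adds more to the spread between samples than to that between positions. These are descriptions, and the blocks of a region share samples and sometimes CpGs.

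The 3 Gnas starts differed in level along the locus. At the Nesp start (chromosome 2, 174107821 to 174110820) the region without the position above its surroundings stood at 42.9%, 36.8% and 32.8% in exercised against 31.6%, 50.4% and 73.3% in sedentary samples. Sedentary sample 3 was highest and rested on 11 to 13 reads a position. At base 408 it had 8 methylated reads of 12 (66.7%, 95% Wilson interval 39.1% to 86.2%). At base 433 it had 13 of 13 (100%, interval 77.2% to 100%), where the other samples stood at 50% to 64.8%. The difference was -14.3 points (SE 12.4, exact permutation p = 0.4), or -12.7 points with all positions (SE 10.5, exact permutation p = 0.4, edgeR p = 0.181). With all positions but without sedentary sample 3 it was -3.28 points and without sedentary sample 1 it was -21.1 points.

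At the XLas start (chromosome 2, 174121360 to 174124359) the level without positions above their surroundings was 56.1%, 51.2% and 50.9% in exercised against 58.8%, 60.7% and 46.8% in sedentary samples. The groups overlapped, with a difference of -2.65 points (SE 4.67, exact permutation p = 0.6), or -1.77 points with all positions. Of its 15 positions not above their surroundings, 13 had a mean level of 25% to 75%, and 7 to 12 were in this range in single samples. In the block at bases 141 to 156 the level was 85.5%, 85.5% and 63.3% in exercised against 18.4%, 81.0% and 83.3% in sedentary samples. Sedentary sample 1 stood apart there, with 3 methylated reads of 16 at base 156 (18.8%, 95% Wilson interval 6.59% to 43.0%), but was at 66.7% in the block at the adjacent bases 140 to 155.

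The region of the Gs alpha start (chromosome 2, 174153590 to 174156589) held 2 kinds of stretch. From position -422 to position 867 its blocks averaged 1.02% to 10.3%, while the block at positions -1583 to -1554, on the side of exon 1A, averaged 42.1%. In that block the level was 37.9%, 46.2% and 49.03% in exercised against 35.4%, 35.6% and 48.3% in sedentary samples, and the groups overlapped. The joint level of 7.29% without positions above their surroundings averaged over both kinds, and it differed by -0.504 points between the groups (SE 0.765, exact permutation p = 0.5), or -0.330 points with all positions.

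Between these stretches lay the largest group difference of any member block. At positions -1108 to -1090 the block stood at 48.6%, 25% and 45.4% in exercised against 53.0%, 85.4% and 80.4% in sedentary samples, so that all exercised samples were lower. Of the 58 member blocks this was the 1 with lower groups that did not overlap, and 2 in Zdbf2 were higher without overlap. Over all 49004 blocks of the table the shares were 3.08% lower and 6.43% higher. At position -1108 the level was 66.7%, 47.1% and 51.7% against 100%, 84.2% and 83.3%, a difference of -34.0 points (SE 8.02, exact permutation p = 0.1, edgeR p = 0.0324, adjusted p = 0.919). At position -1090 it was 11.1%, 17.6% and 43.3% against 36.0%, 85.7% and 84.6%, where the groups overlapped (-44.7 points, SE 19.1, exact permutation p = 0.2, edgeR p = 0.0322, adjusted p = 0.919). These values rest on 12 to 30 reads. Both positions lie in 1 block and are read by the same reads, so they are 1 observation. In the 1000 bp window that holds this block (174154001 to 174155000, 11 positions, all used) the groups overlapped. The difference there was -6.67 points (SE 4.56, exact permutation p = 0.2, edgeR p = 0.151). The remaining Gnas position with an unadjusted p under 0.05, base 330, stood at 0%, 2.91% and 5% in exercised against at 0 of 305 reads in sedentary samples, which allows a level of up to 0.984% (exact permutation p = 0.4, edgeR p = 0.0486).

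**Figure D5:**
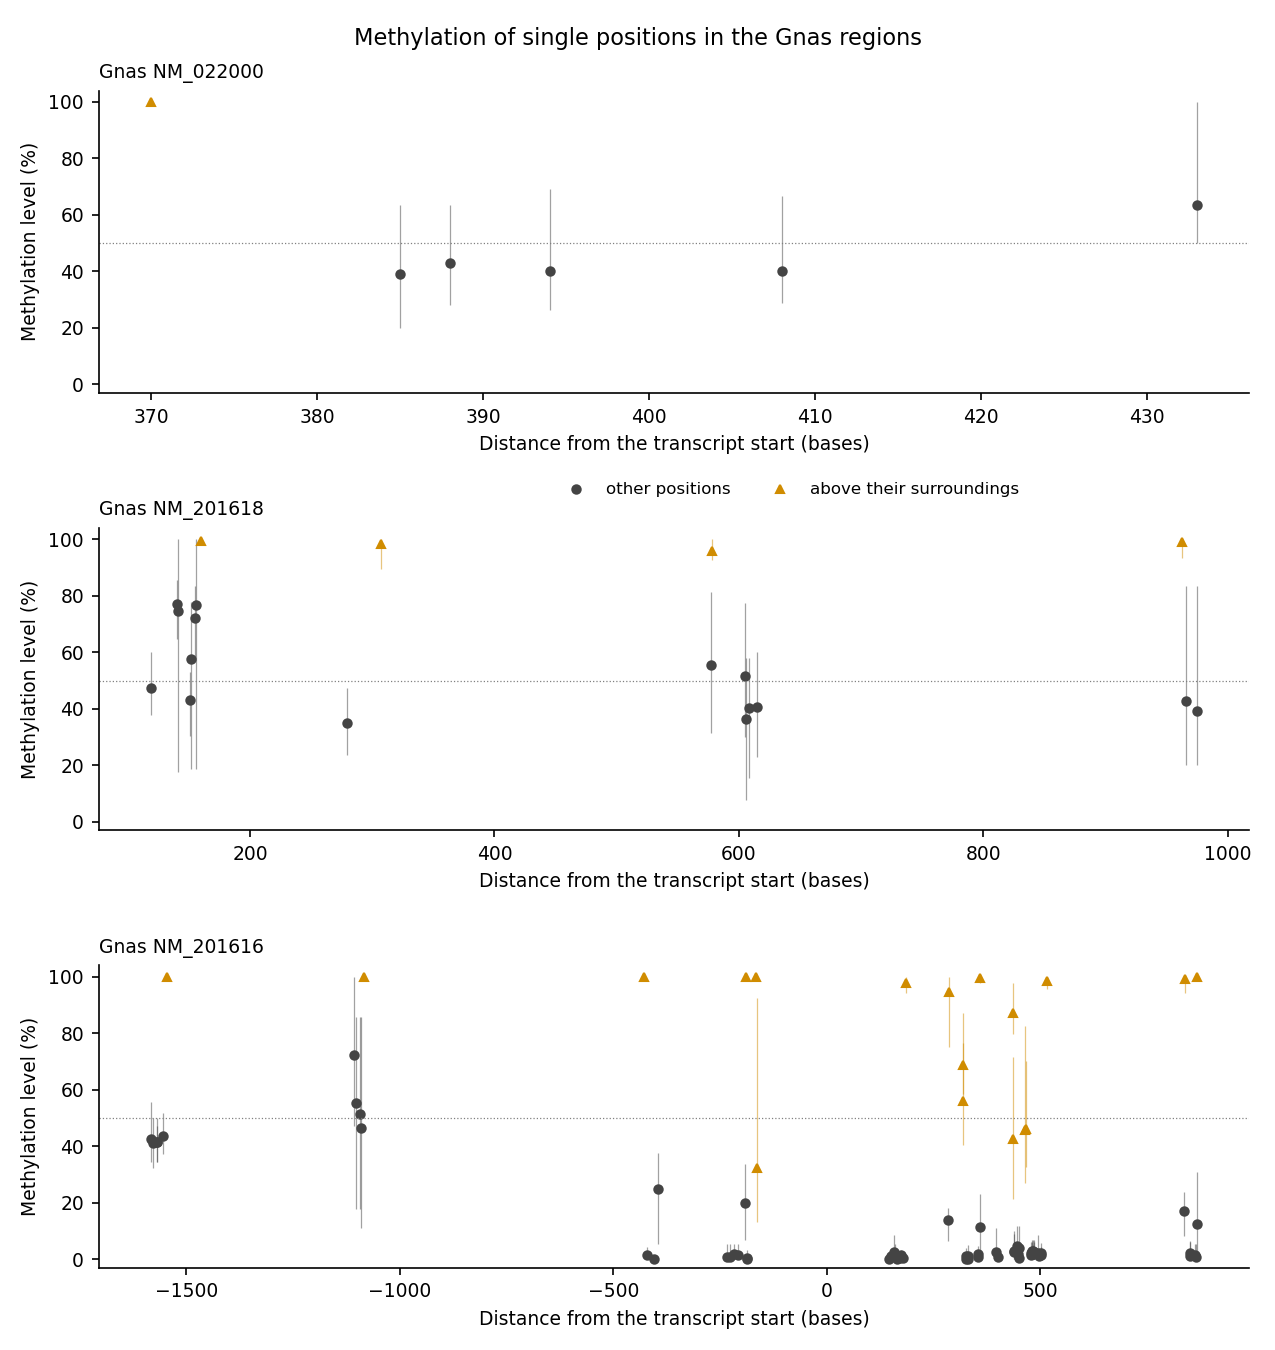
Mean level of each listed position (y axis, %) against its distance from the transcript start (x axis, bases) in the Nesp (NM_022000), XLas (NM_201618) and Gs alpha (NM_201616) regions of Gnas, with vertical lines from the lowest to the highest sample and triangles for positions above their surroundings. In the bottom panel other positions fall from about the dotted 50% line upstream (block means of 42.1% and 56.3%) to block means of 1.02% to 10.3% around the start.

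Zdbf2 (chromosome 1, 63317843 to 63320842) was nearly unmethylated around its start. Its 62 positions ran from base 22 to base 552. Of the 54 not above their surroundings, 0 had a mean level of 25% to 75%, and the median position level was 2.90%. The joint level of the 54 was 6.13%, 5.76% and 4.98% in exercised against 3.69%, 4.90% and 4.20% in sedentary samples. All exercised samples were higher, by 1.36 points (SE 0.489, exact permutation p = 0.1, the smallest that 3 against 3 allows). In edgeR the p was 0.135 and the adjusted p 0.998, over the 9540 regions tested in this way. Over all 185495 positions of the table under 10%, the level was 1.91% ± 0.261 in exercised against 1.77% ± 0.267 in sedentary samples (SD, n = 3, difference 0.137 points, exact permutation p = 0.6). With all positions the Zdbf2 difference was 0.474 points (SE 0.711, exact permutation p = 0.5).

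Zdbf2 had 3 positions with an unadjusted p under 0.05. At base 526 the level was 30.2%, 9.38% and 2.78% in exercised samples, against 0 of 76 reads in the sedentary samples, which allows a level of up to 3.95% (exact permutation p = 0.1, edgeR p = 0.0131, adjusted p = 0.919). The exercised values spread more widely than their distance from the sedentary ones, and exercised sample 1 was highest. At base 61, a position above its surroundings, the level was 100% in each exercised sample and 96.9%, 91.9% and 73.7% in sedentary samples (exact permutation p = 0.1, edgeR p = 0.00986). At base 23, the position in TCGA shown in the sequence, the direction was the opposite, with 99.2%, 97.0% and 99.4% against 100% in each sedentary sample (exact permutation p = 0.1, edgeR p = 0.0224).

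Sfmbt2 had the smallest p of the 10 regions, and its difference lay in positions above their surroundings. The region of NM_177386 (chromosome 2, 10292063 to 10295062) had 8 positions at bases 499 to 564, with levels of 39.8%, 38.2% and 36.4% in exercised against 47.6%, 49.7% and 43.6% in sedentary samples. All exercised samples were lower, by 8.86 points (SE 2.06, exact permutation p = 0.1, edgeR p = 0.00639, adjusted p = 1.0). At a coverage of at least 20 the difference was -14.9 points (edgeR p = 0.000852, adjusted p = 1.0, exact permutation p = 0.1), and the 3 positions left were all above their surroundings. With stand-alone positions (at least 10% amid a median under 10%) left out of the table, the region kept all 8 positions, but its edgeR p was 0.168 (exact permutation p = 0.1). The 4 positions above their surroundings, at bases 534, 535, 563 and 564, together stood at 62.1%, 63.5% and 61.9% in exercised against 71.2%, 78.0% and 73.3% in sedentary samples. The 4 other positions stood at 7.98%, 6.21% and 3.66% in exercised against 3.88%, 12.3% and 3.03% in sedentary samples, which differed by -0.449 points (SE 3.21, exact permutation p = 0.9, edgeR p = 0.836). The share of reads on the 4 positions above their surroundings was 56.9% ± 1.69 in exercised against 59.9% ± 4.40 in sedentary samples (SD, n = 3), and its part in the difference was not tested.

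Of these 4 positions, 1 had groups that did not overlap. At base 564 the level was 17.7%, 48.3% and 42.9% in exercised against 53.4%, 65.7% and 65.4% in sedentary samples. The adjacent bases 563 and 564 stood at 98.1% and 48.9% on average. At base 563 the difference was 0.280 points. No sequence was read for this stretch, so whether it holds CCGG or TCGA was not tested.

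The region of the other Sfmbt2 transcript, NM_001198808 (chromosome 2, 10290078 to 10293077), overlapped that of NM_177386 by 1015 bp without sharing a listed position, and had 3 positions. With all of them it stood at 41.6%, 38.9% and 50% in exercised against 39.7%, 60% and 34.5% in sedentary samples. The groups overlapped, with a difference of -1.24 points (SE 8.48, exact permutation p = 0.9). Of the 3 positions 1 was above its surroundings at 99.7%. The other 2 stood at 12.3%, 7.81% and 25% in exercised against 10.1%, 40% and 1.72% in sedentary samples, which overlapped (-2.22 points, SE 12.7, exact permutation p = 0.9).

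None of the other imprinted genes examined differed past the test. A list of 55 further imprinted genes had 28 genes with a region and 28 regions tested, of which 12 were higher and 16 lower, with 0 at an adjusted and 0 at an unadjusted p under 0.05 (edgeR) and a median of -0.355 points. The smallest p among the higher ones were those of Igf2 NM_010514 (1.61 points), Dio3 (2.22) and Usp29 (5.11), and among the lower ones those of Trappc9 (-2.56), Igf2r (-3.46) and Cdkn1c (-4.07), and in each the groups overlapped. The other Igf2 regions tested were at -3.89 points for NM_001122736 and -0.125 points for NM_001122737, and their groups overlapped too. Without positions above their surroundings, 7 of the 28 stood at 25% to 75%, against 2.60% of all regions. Among all regions of the list, whatever their joint level, those with the most single positions at 25% to 75% included Igf2r (receptor of insulin-like growth factor 2, 33.1%), Cdkn1c (a cell cycle inhibitor, 35.1%), Nnat (a membrane proteolipid, 58.7%), Plagl1 (a zinc finger factor, 42.6%) and Mkrn3 (a ring finger protein of the Prader-Willi cluster, 24.3%). The joint level of Mkrn3 lay just under 25%.

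The regions most like the members by level in the 6 samples (smallest Euclidean distance over samples, regions of at least 10 positions) were not all like them without the positions above their surroundings. The nearest regions to Peg12 were those of Ttc41, Ano1 and Mgat1, at distances of 2.45 to 3.55 points, and Ttc41 stood at 30.8% with all positions but at 6.50% without those above their surroundings, where Peg12 kept 20.01%. For Zrsr1 they were those of Lhb (a luteinizing hormone subunit), Ssr3 and Fgf6, at 6.90 to 9.46 points, and Lhb kept 45.6%. The XLas start was nearest to Krtdap, Tmem267 and Amigo3 (11.8 to 15.97 points) and the Gs alpha start to Bcl6b, Psme3 and Prr7 (up to 2.13 points).

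Depth and tissue bear on all of these values. Total coverage was lowest in sedentary sample 3 (9153526 calls) and highest in sedentary sample 2 (18656340 calls), and the member regions had 8295 to 18098 calls a sample. Intervals and floors cover counting error only. Of 16 skeletal muscle marker genes 2 had a region, so the labelled tissue could not be checked by them, and a difference in cell make-up cannot be told apart from one in methylation within cells.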

How the data were processed

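The authors deposited 1 table for 6 samples with the methylated fraction of each cytosine and the count of reads covering it, and also a difference of group means and a p-value for each position, which were not used here. Per the submitters' processing notes, the build was mm9 and the tools were Bismark 0.7.7, Bowtie 0.12.9, cutadapt 1.0 and Trim Galore 0.2.5, with settings that the sources used here do not give. The deposited coverage count was at least 10 in all samples, and multiplying it by the fraction gave whole reads to within 0.00236, which served as the methylated reads. Symbols were matched for 10655 of 10755 transcripts through a RefSeq table (GRCm38.p6).

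Counts were summed over each region, over 1000 bp windows (both with at least 3 positions) or kept by position, and tested with edgeR 4.0.16 (R 4.3.3) by the quasi-likelihood test with a term for each sample and one for the group on methylated counts, with Benjamini-Hochberg adjustment at 0.05 over the whole table. The test was also run on simulated counts whose spread was set by hand and not fitted to these data. That run cannot show how the test behaves on these data. Levels, the methylated share of all reads of a region, were compared by exact two-sided permutation over 10 splits (Python 3.11.15, scipy 1.17.1). Alternatives were limma 3.58.1, a coverage of at least 20, a replicate block, leaving out each sample, merged strands, and leaving out stand-alone positions or, chosen after seeing the data, positions above their surroundings. Named positions are those of a member region with an unadjusted p under 0.05 (at most 5 a region); of the further imprinted genes, the 3 with the smallest p per direction and the 5 with the most positions at 25% to 75%, and the 3 regions nearest in level to each member region of at least 10 positions. Blocks, Commd1, the Peg12 and Gnas windows, base 742 of Magel2, base 564 of Sfmbt2 and the strand examples lie outside this rule. They were picked after their values were seen. The genes and lists were chosen with earlier results of these data known. The regions most like that of Zdbf2 are not reported here.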

Additional observations from a re-analysis of the deposited data

How the results depend on the processing

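At all 3 scales the count of adjusted calls was 0 under every alternative run. Of 237 regions at an unadjusted p under 0.05 (edgeR), leaving out 1 sample gave 169 to 601, leaving out stand-alone positions (at least 10% amid a median under 10%) gave 440 and leaving out positions above their surroundings gave 410. For 381 windows leaving out 1 sample gave 289 to 708, and for 8426 single positions 4440 to 7142, with the lowest counts without exercised sample 2 (4440) and 3 (4476). Same-numbered samples deviated from their group means with correlations of 0.0190, -0.219 and -0.111. These values cannot show whether the replicate numbers pair the samples, since deviations within a group of 3 depend on one another. A replicate block gave 204 regions, 337 windows and 1852 positions, and not every sample correlated best with its own number.

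Leaving out 1 sample gave differences in level of -3.41 to 3.05 points for Zrsr1, -4.79 to 6.52 for Nap1l5, -9.46 to 4.96 for Magel2, -3.13 to 0.237 for Peg12, -5.15 to 0.591 for the XLas and -1.85 to 1.35 for the Gs alpha start of Gnas, and -6.36 to 6.40 for Sfmbt2 NM_001198808, each with a change of sign. It kept the sign for Sfmbt2 NM_177386 (-10.6 to -7.48), Zdbf2 (0.0583 to 1.14) and the Nesp start (-21.1 to -3.28). At a coverage of at least 20 the XLas start turned to 0.516 and the Gs alpha start to 2.27 points, Sfmbt2 NM_177386 moved from -8.86 to -14.9, and without positions above their surroundings Nap1l5 turned to 0.745. The count of half-methylated positions, 92, was 57 at limits of 35% to 65% and 38 at a coverage of at least 20. That coverage also left fewer positions to count, such as 43 of 87 in Peg12, 30 of 62 in Zdbf2 and 17 of 34 in Zrsr1. The fall to 38 therefore cannot be read as a fall in their share, which is not given here. The causes were not tested.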
